A study of Mus musculus with 4 samples.

Results

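The genes described here are 10 markers used to recognize stem-like cells in breast tumors: *Cd44*, *Cd24a*, *Prom1*, *Aldh1a1*, *Aldh1a3*, *Sox9*, *Sox4*, *Ly6a*, *Procr* and *Klf4*. They were listed by name, by a rule that uses no expression value, though with earlier results of these data known. Of the 10, 9 had a row among the 20197 genes of the expression table. *Prom1* (ENSMUSG00000029086), which encodes the membrane protein CD133, was not analysed here. RNA was sequenced from 4T1 cells, a metastatic mouse mammary tumor line of the triple-negative kind, which the labels give as wild type. MitoSpy Red, a dye applied at 20 nM, accumulates in mitochondria according to their membrane potential (MMP), and the stained cells were sorted by flow cytometry into the brightest 5% (high MMP) and the dimmest 5% (low MMP). Each sorted sample held 100000 cells, and there were 2 high MMP and 2 low MMP samples, all from cells grown in the same serum-containing medium with no drug or genetic change. The comparison addressed whether stem-like markers differed between tumor cells at the extremes of MMP. 4T1 is a single cultured line, and the study counts the samples of a group as independent experiments. The labels do not say whether a high and a low MMP sample of the same number came from one experiment.

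Stem-like tumor cells are recognized by several kinds of marker. Some are surface proteins, as in the CD44-high CD24-low phenotype of human breast cancers, some are aldehyde dehydrogenases read by the ALDEFLUOR assay, and others are transcription factors that maintain progenitor states in the normal mammary gland. Many of these markers respond to growth and stress signals as well, and most are also expressed outside stem cells.

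The libraries held 22591970 to 26395015 reads assigned to genes, and the deposited values were these reads scaled to the same total of 20000000 in each library, called normalized reads here. The limit that a count of 0 allows, taken here as 3 reads, corresponded to 2.27 to 2.66 normalized reads. All 8 epithelial markers examined were in the table, and their summed level ranged from 53729 to 60062 normalized reads in high MMP sample 2 and low MMP sample 1 and from 68677 to 72169.7 in the other two. Of 8 immune markers 3 were in the table, with *Ptprc*, which encodes the pan-leukocyte antigen CD45, at 0 to 1.77 normalized reads and *S100a8*, a gene of neutrophils, at 36.4 and 10.9 in high MMP and 1.74 and 4.43 in low MMP samples. *Cd68* was the highest of the 3, at 59.9 and 139 in high MMP and 149 and 91.2 in low MMP samples. The 3 summed to 97.0 to 151 normalized reads, with the groups overlapping. The 2 endothelial markers of 6 in the table summed to at most 6.20, and 4 of 6 fibroblast markers were in the table, led by *Pdgfra* at 319 and 363 in high MMP and 536 and 589 in low MMP samples. Whether other cells had a part in the marker values was not tested. In RNA from bulk samples, fewer cells that express a gene and less RNA per cell cannot be told apart.

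*Procr* and *Sox4* were the only members of the 9 whose normalized reads were higher in both high MMP samples than in both low MMP samples. No member was lower in both. Across all genes, 13.5% were higher without overlap of the groups, 24.5% were lower and 37.9% were either. Among genes with a mean of at least 10 normalized reads, where 2 of 7 markers were higher, the shares were 14.3% higher and 23.7% lower. No member passed the test (limma, adjusted p under 0.05), nor did any other gene of the table, for which the share called was 0.0%. In self-tests of this design with known changes, the same fit over all genes did not reach its threshold, so the lack of calls says nothing about the markers. Limited to genes whose mean reached 10, limma did give calls in the self-tests. These changed genes 2-fold or 4-fold, with the same dispersion (variance beyond counting error) for every gene. They do not show whether smaller differences, such as that of *Procr*, would be called. In the data, limma limited to the 12902 genes with that mean called 0.0%, with 1059 at an unadjusted p under 0.05. The lowest adjusted p of a marker in that fit was 0.268, for *Procr*. At an unadjusted p under 0.05, limma over the whole table named 2011 genes, 9.96% of all, among them 1 of the 9 members, *Procr*, in the direction that held 3.95% of all genes. edgeR on the recovered reads also called 0 genes, with 1423 at an unadjusted p under 0.05, while DESeq2 called 118 of the 12365 genes it gave an adjusted p (0.954%, with 660 at an unadjusted p under 0.05) and none of the markers. When edgeR was fitted with the samples paired, it called 0.525% of genes and no marker for samples of the same number, and 3.63% of genes and 1 marker, *Procr*, for a crossed pairing chosen after seeing the data. The members' median difference, high minus low MMP, was 0.24 on the log2(value + 1) scale over the 9 and 0.13 over the 7 with a mean of at least 10 normalized reads, beside −0.04 for all genes and −0.03 for all genes with that mean. The count of members higher without overlap was 3 after median-of-ratios rescaling of all samples, where the share of all genes was not computed. It became 6 when high MMP sample 2 or low MMP sample 2 was left out. In those settings 32.0% and 23.9% of all genes were higher without overlap.

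**Figure D1:**
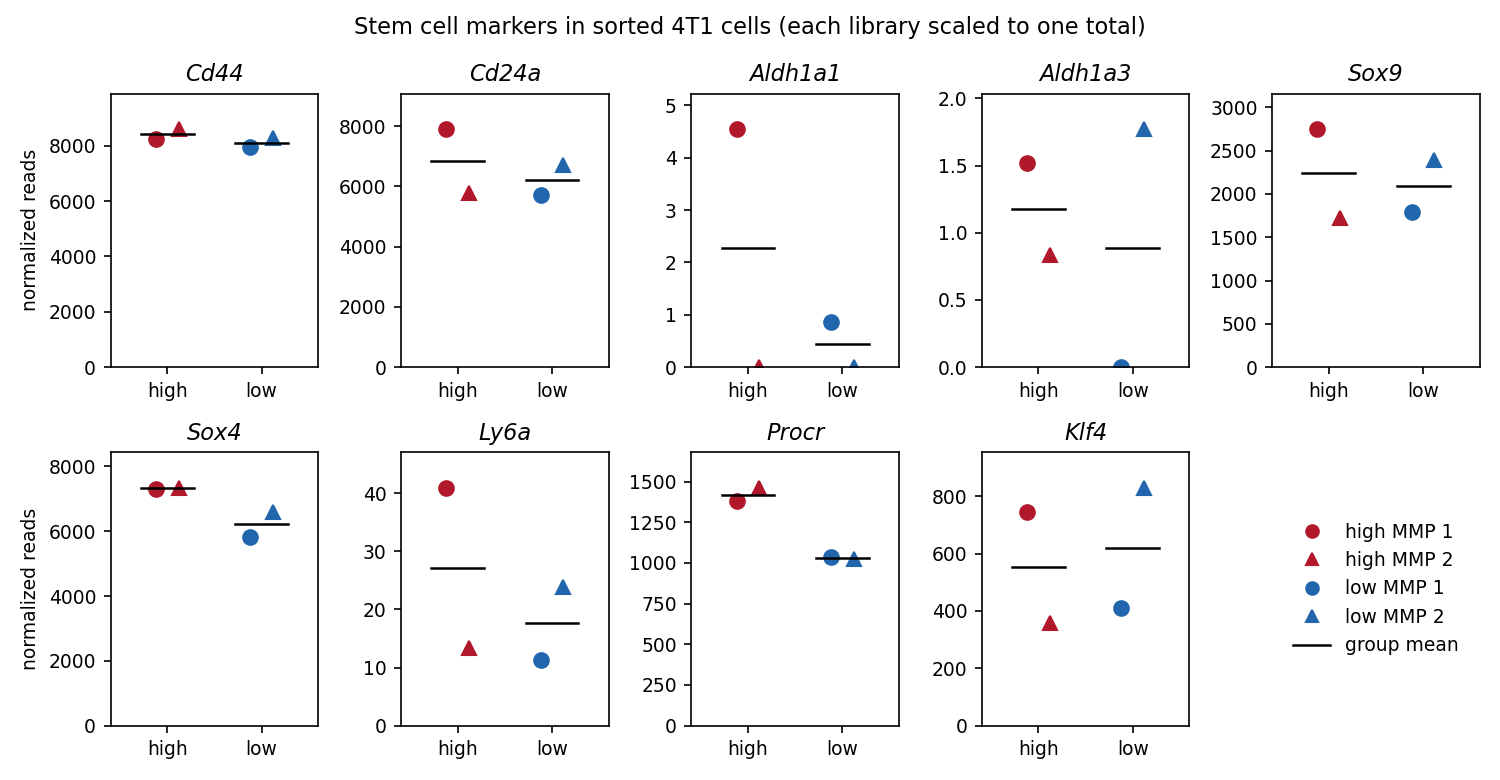
Normalized reads (vertical axis, from 0) of the 9 markers in the 2 high MMP samples (red) and 2 low MMP samples (blue), with circles for sample 1, triangles for sample 2 and a line at each group's mean. *Procr* was at 1379 and 1463 in the high MMP samples and at 1036 and 1027 in the low MMP samples, while the groups overlapped for 7 of the 9 genes.

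*Procr* (ENSMUSG00000027611, GRCm38 chromosome 2, 155751117 to 155755471, plus strand) encodes the endothelial protein C receptor, a surface protein that marks a multipotent progenitor of the mouse mammary gland. It had 1379 and 1463 normalized reads in high MMP samples 1 and 2, and 1036 and 1027 in low MMP samples 1 and 2. Both high MMP values lay above both low MMP values, and the groups were separated by more than the spread within either. The means were 1421 ± 59.2 and 1031 ± 6.18 (SD, n = 2 each), a difference of 0.46 on the log2(value + 1) scale (SE 0.08, 95% interval 0.25 to 0.67), which is 37.8% higher in high MMP. The limma p was 0.00332 before adjustment and 0.472 after Benjamini-Hochberg adjustment over all genes, and over the other settings without a crossed pairing it ranged from 0.104 with DESeq2 to 0.900 without low MMP sample 2. No 75-base stretch of its exons was found in another annotated gene.

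*Sox4* (ENSMUSG00000076431, chromosome 13, 28948919 to 28953713, minus strand) encodes a SOX transcription factor linked to progenitor maintenance and to the epithelial to mesenchymal transition. Its values were 7299 and 7343 normalized reads in the high MMP samples and 5823 and 6601 in the low MMP samples. The high MMP samples were nearly equal to each other, and both lay above the low MMP samples, which differed by 0.18 on the log2 scale. The means were 7321 ± 31.1 and 6212 ± 549.6 (SD, n = 2 each), 17.9% higher in high MMP, with a log2 difference of 0.24 (SE 0.10, 95% interval −0.04 to 0.52). The limma p was 0.0783 before adjustment and 0.577 after it. Its exons lie across from those of *Gm26735*, an antisense noncoding RNA that was not analysed here, and 53.8% of its 75-base stretches were shared with it. The library kit keeps strand, but whether reads were counted by strand is not given in the sources used here, so the value may include reads of the antisense gene.

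Upstream sequence is shown for the markers whose values set the groups apart, *Procr* and *Sox4*, and for *Klf4*, whose values did not. The windows come from 250-base upstream sequences on GRCm38.p6. They were cut where an exon of the gene in GENCODE M21, or the gene in RefSeq, begins inside the sequence. They are written 5′ to 3′ on the gene's strand, and lie at chr2:155750967-155751116 (plus), chr13:28953714-28953949 (minus) and chr4:55532476-55532725 (minus). Capitals mark matches, on either strand, to the 6 motifs searched, which were those of AP-1, the GC box, the CCAAT box, the TATA box, the E-box and SOX factors.

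Procr: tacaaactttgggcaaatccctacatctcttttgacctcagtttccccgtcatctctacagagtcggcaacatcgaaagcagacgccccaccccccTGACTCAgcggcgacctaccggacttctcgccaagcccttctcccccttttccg

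Sox4: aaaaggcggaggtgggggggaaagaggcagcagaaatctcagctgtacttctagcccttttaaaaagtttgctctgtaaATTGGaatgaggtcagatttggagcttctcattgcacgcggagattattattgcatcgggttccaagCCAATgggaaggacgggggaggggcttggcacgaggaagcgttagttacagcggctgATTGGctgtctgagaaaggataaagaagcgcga

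Klf4: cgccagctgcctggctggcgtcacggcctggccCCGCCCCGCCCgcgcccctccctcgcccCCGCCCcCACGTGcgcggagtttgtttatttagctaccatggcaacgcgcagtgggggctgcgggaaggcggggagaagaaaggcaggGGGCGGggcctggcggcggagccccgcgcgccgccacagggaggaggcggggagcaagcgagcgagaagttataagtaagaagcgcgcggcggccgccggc

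The *Procr* window of 150 bases held 1 match to the AP-1 motif, spelled TGANTCA, and no other searched motif. Windows of that length upstream of genes held an AP-1 match in 4.00% of 32851 cases. All such comparison windows were the first bases of 250-base upstream sequences and were not cut at exons. Shorter ones can therefore lie farther from the gene than the *Procr* and *Sox4* windows. The *Sox4* window of 236 bases held 3 matches to CCAAT, a motif present in 32.7% of windows of that length. The *Klf4* window of 250 bases held 4 GC boxes, spelled GGGCGG, of which the first pair overlap by 1 base, and 1 E-box, spelled CACGTG and overlapping no other match, beside 32.7% and 6.02% of windows with at least 1 of each. The TATA box, searched as TATAAA, and the SOX motif, searched as AACAAT, had no match in these 3 windows. Promoter sequence was matched for 6 of the 10 genes, and a match is a description of the letters, not evidence that a factor binds there.

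*Cd44* (ENSMUSG00000005087, chromosome 2, 102811141 to 102901665, minus strand), the receptor for hyaluronan, was close to equal in the 4 samples. It had 8228 and 8595 normalized reads in high MMP and 7936 and 8265 in low MMP samples, with group means of 8412 ± 259 and 8100.3 ± 233 (SD, n = 2 each). The difference was 0.05 on the log2 scale (SE 0.09, 95% interval −0.19 to 0.30), with a limma adjusted p of 0.929, and the groups overlapped. Its interval is narrow beside those of the other overlapping markers.

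*Cd24a* (ENSMUSG00000047139, chromosome 10, 43578284 to 43584265, plus strand), a heavily glycosylated surface protein whose low level accompanies high CD44 in the human stem-like phenotype, had 7897 and 5780.0 normalized reads in high MMP samples 1 and 2. The low MMP samples had 5707 and 6707. High MMP sample 1 was the highest and low MMP sample 2 the next, so the spread within the high MMP group was larger than the difference between the means (6838 ± 1497 and 6207 ± 707, SD, n = 2 each). The log2 difference was 0.13 (SE 0.19, 95% interval −0.40 to 0.65), with a limma adjusted p of 0.917, and it was −0.10 without high MMP sample 1. The log2 ratio of *Cd44* to *Cd24a* reads, which is not corrected for length, was 0.06 and 0.57 in the high MMP samples and 0.48 and 0.30 in the low MMP samples. The ratio averaged 0.32 ± 0.36 and 0.39 ± 0.12 (SD, n = 2 each), so the 2 highest of the 4 ratios came from different groups.

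**Figure D2:**
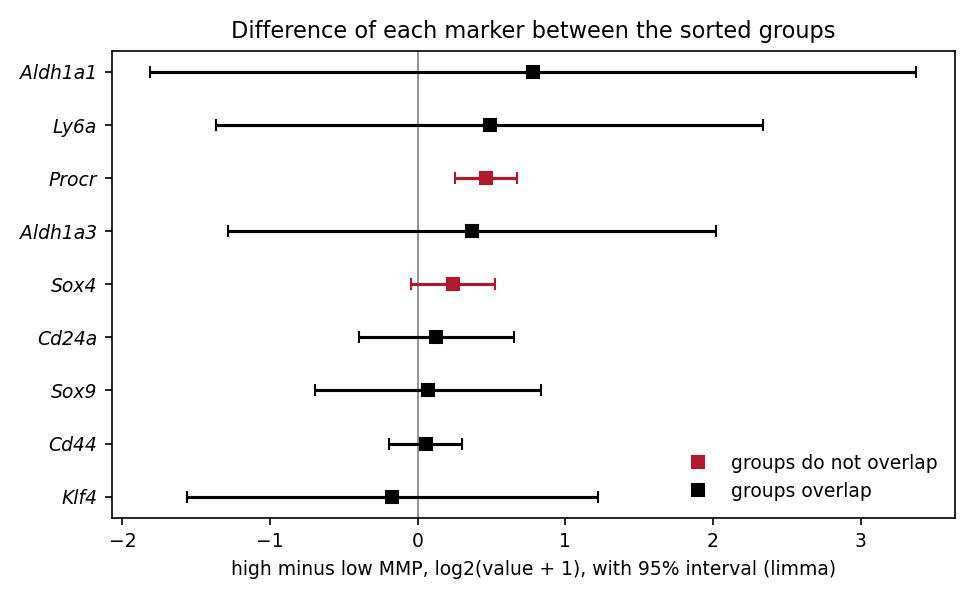
Difference between high and low MMP samples for each marker on the log2(value + 1) scale (horizontal axis), as the limma estimate (square) with its 95% interval (bar), with red for the 2 markers whose groups did not overlap and black for the rest. The *Procr* interval, 0.25 to 0.67, lay above 0, and each of the other intervals included 0.

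*Klf4* (ENSMUSG00000003032, chromosome 4, 55527143 to 55532466, minus strand), a reprogramming factor that also responds quickly to growth and stress signals, varied more between replicates than between groups. Its values were 746 and 359 normalized reads in high MMP samples 1 and 2 and 409 and 829.5 in low MMP samples 1 and 2. The lowest value and the next highest both came from high MMP samples, and the replicates differed by 1.05 on the log2 scale within high MMP and 1.02 within low MMP. The difference between the groups was −0.17 (SE 0.51, 95% interval −1.56 to 1.22), with a limma adjusted p of 0.970. It changed sign to 0.36 without high MMP sample 2 and to 0.34 without low MMP sample 2.

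*Sox9* (ENSMUSG00000000567, chromosome 11, 112782224 to 112787760, plus strand), a SOX factor of luminal progenitors, was at 2747 and 1726 normalized reads in high MMP and 1796 and 2393 in low MMP samples. The means were 2236 ± 722 and 2094 ± 422 (SD, n = 2 each), and the groups overlapped. The log2 difference was 0.07 (SE 0.28, 95% interval −0.69 to 0.83), with a limma adjusted p of 0.989. It was −0.26 without high MMP sample 1 and −0.14 without low MMP sample 1.

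*Ly6a* (ENSMUSG00000075602, chromosome 15, 74994877 to 74998031, minus strand) encodes the surface antigen Sca-1, and it was the marker with the widest range over the 4 samples if the scarce ALDH genes are set aside. It had 40.9 and 13.4 normalized reads in the high MMP samples and 11.3 and 23.9 in the low MMP samples, which rest on 54, 16, 13 and 27 reads. The lowest value came from the low MMP group and the highest from the high MMP group, and the others overlapped. The log2 difference of 0.49 (SE 0.68, 95% interval −1.37 to 2.34), with a limma adjusted p of 0.904, turned to −0.28 without high MMP sample 1 and to −0.02 without low MMP sample 1. Of its 75-base stretches 6.33% were shared with *Ly6c1* or *Ly6i*, so a part of the few reads could belong to those genes.

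The 2 highest libraries were high MMP sample 1 and low MMP sample 2 for *Cd24a*, *Sox9*, *Ly6a* and *Klf4*, which is 4 of the 7 markers with a mean of at least 10. Among all genes with that mean, 22.2% had these 2 libraries highest. The same libraries were the highest for 13 of 22 immediate-early and stress genes. *Fos* was at 2419, 521, 326 and 2357 normalized reads in high MMP 1, high MMP 2, low MMP 1 and low MMP 2, and *Fosb*, also a subunit of AP-1, was at 4855, 601, 389 and 5063 (*Fos* and *Fosb*, and *Atf3* below, were chosen after their values were seen). The summed level of the 22 genes was 77487, 62217, 49904 and 70151 in that order, so it was highest in the same libraries, as was that of the 8 epithelial markers, of which 6 had this order. Of the genes the naming rule gave from the immediate-early and stress list, only *Btg2* shared this order. *Egr1* was at 10354 and 9783 against 6032 and 8141, and *Egr2* at 246 and 207 against 99.4 and 169.97, higher in both high MMP samples. *Ier3*, at 12107 and 10781 against 8154 and 10570.1, was also higher in both, while *Btg2* was at 436 and 275 against 131 and 287. Whether these shifts had a part in the values of the 4 markers was not tested.

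**Figure D3:**
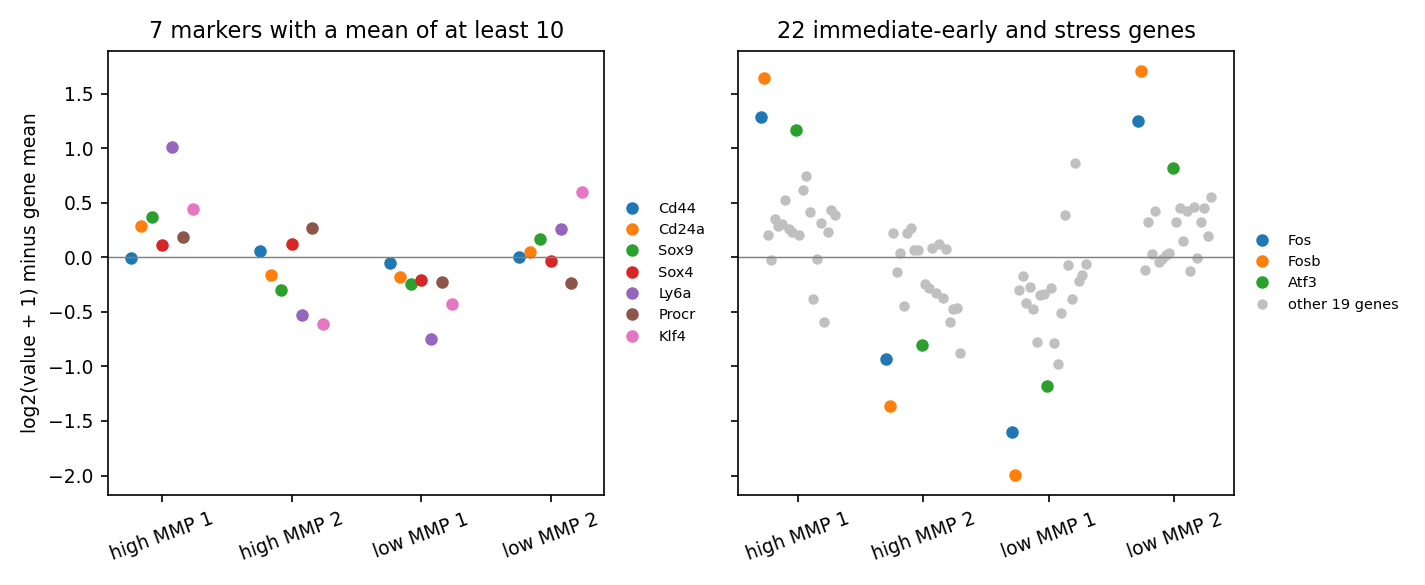
Log2(value + 1) minus the gene's mean over the 4 samples (vertical axis) for each of the 4 libraries, with the 7 markers that had a mean of at least 10 on the left and the 22 immediate-early and stress genes on the right, *Fos*, *Fosb* and *Atf3* in color. *Ly6a*, *Klf4*, *Sox9* and *Cd24a* lay above 0 in high MMP sample 1 and low MMP sample 2, and so did *Fos*, *Fosb* and *Atf3*.

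*Aldh1a1* (ENSMUSG00000053279, chromosome 19, 20492715 to 20643465, plus strand) and *Aldh1a3* (ENSMUSG00000015134, chromosome 7, 66390890 to 66427517, minus strand), the retinaldehyde dehydrogenases most often credited with ALDEFLUOR activity, were at or near 0. *Aldh1a1* had 6 reads (95% Poisson interval 2.20 to 13.1) in high MMP sample 1, 1 read (0.0253 to 5.57) in low MMP sample 1 and 0 in the other two, which allows up to 2.51 normalized reads in high MMP sample 2 and 2.66 in low MMP sample 2. *Aldh1a3* had 2 and 1 reads in the high MMP samples and 0 and 2 in the low MMP samples. Intervals from reads cover counting error only. The log2 differences were 0.78 (95% interval −1.81 to 3.38, limma adjusted p 0.874) and 0.37 (−1.29 to 2.02, adjusted p 0.927), and both intervals were wide and included 0. They were −0.45 for *Aldh1a1* without high MMP sample 1 and −0.37 for *Aldh1a3* without low MMP sample 1.

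Per kilobase of exon, the markers ranged over several orders of magnitude. *Cd24a* was the highest with a mean of 2528 normalized reads per kb (range 2212 to 3061 over the 4 samples), followed by *Sox4* at 1411 (1214 to 1531) and *Cd44* at 1218 (1171 to 1268), whose ranges overlapped. *Procr* at 604 (506 to 720) and *Sox9* at 524 (417 to 664) also overlapped. *Klf4* followed at 192 (118 to 272), then *Ly6a* at 18.6 (9.40 to 34.0), and *Aldh1a1* and *Aldh1a3* were under 1 in every sample, with overlapping ranges.

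**Figure D4:**
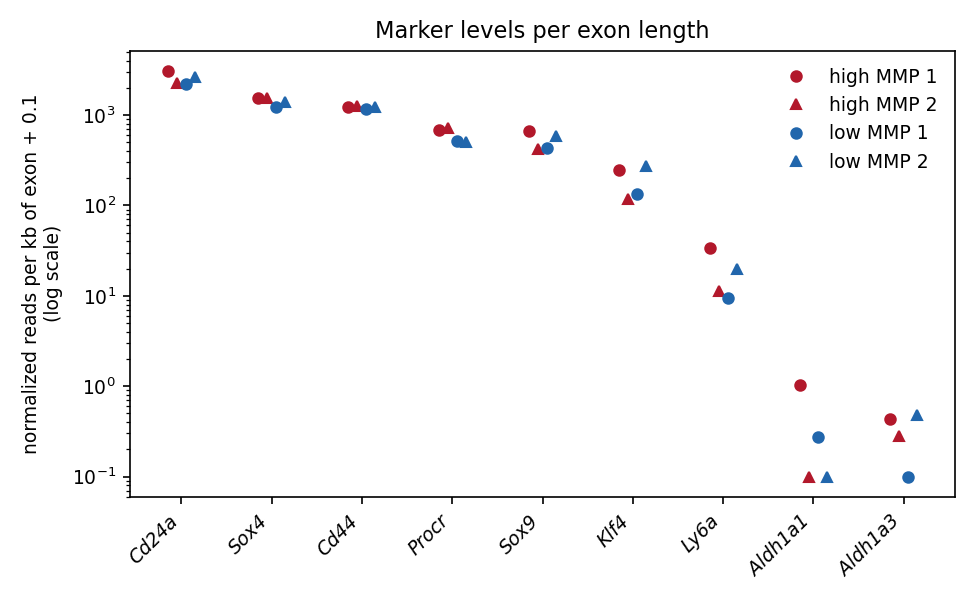
Normalized reads per kb of exon on a log axis (a small constant was added so that 0 could be drawn) for the 9 markers ordered by their mean, with high MMP samples in red and low MMP samples in blue. *Cd24a* lay highest at 2212 to 3061, and *Aldh1a1* and *Aldh1a3* lay lowest, each with at least 1 library at 0.

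Aldehyde dehydrogenases other than the 2 markers were present, since 14 further family members had rows. Of the 16 members in all, 1 was higher and 5 were lower in high MMP without overlap, beside 13.5% higher and 24.5% lower among all genes, and the median log2 difference was 0.03. *Aldh3a1*, which oxidizes aldehydes of lipid peroxidation, was at 174 and 112 normalized reads in high MMP and 71.5 and 82.3 in low MMP samples, a log2 difference of 0.86 (SE 0.26) with a limma adjusted p of 0.472. *Aldh5a1*, the mitochondrial succinic semialdehyde dehydrogenase, was at 305 and 307 against 432 and 399, a log2 difference of −0.44 (SE 0.10) with the same adjusted p. *Aldh2*, the mitochondrial acetaldehyde enzyme, was at 5214 and 4297 against 4298 and 4481, and the proline synthesis enzyme *Aldh18a1* was at 4846 and 5913 against 5993 and 4276, so their groups overlapped. In the retinoic acid axis, 16 of 18 genes were in the table, 3 higher and 4 lower without overlap. *Dhrs9*, a retinol dehydrogenase, was at 456 and 645 normalized reads in high MMP and 391 and 327 in low MMP samples, with a limma adjusted p of 0.477. *Fabp5*, which carries retinoic acid to the nucleus, was at 2563 and 1803 against 1849.9 and 2108, and the receptor *Rarg* was at 1385 and 1197 against 1316 and 1418, so both overlapped.

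Among partners of CD44, 15 of 16 genes were in the table, 5 higher and 3 lower in high MMP without overlap (13.5% and 24.5% of all genes), with a median log2 difference of 0.07. *Has3*, a hyaluronan synthase, was at 22.7 and 23.4 normalized reads in high MMP and 10.5 and 7.97 in low MMP samples, a log2 difference of 1.25 (SE 0.29) with a limma adjusted p of 0.472. *Spp1*, which encodes the CD44 ligand osteopontin, was at 14653 and 12672 against 15362 and 17105, lower in both high MMP samples, and *Msn*, which encodes moesin, a linker between CD44 and actin, was at 32854 and 32743 against 32304 and 30060.2. *Hmmr*, a hyaluronan receptor that also acts in mitosis, was at 3444 and 4387 against 3042 and 3081 (adjusted p 0.555). Of 8 partners and relatives of prominin and CD24, 7 were in the table, 2 higher and 2 lower without overlap. *Selp*, which encodes P-selectin, a receptor for CD24, was at 43.9 and 36.8 against 19.2 and 18.6. *Prom2*, the relative of *Prom1*, was at 160 and 135 against 210 and 205, and each of the 2 had a limma adjusted p of 0.472. *Hdac6* was at 677 and 731 against 821 and 776, and *Arl13b*, which encodes a ciliary GTPase, was at 555 and 618 against 550.1 and 540.0.

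In the SOX family 10 of 19 genes were in the table, 2 higher and 4 lower in high MMP without overlap (13.5% and 24.5% of all genes). *Sox12*, of the same SOXC group as *Sox4*, was lower in both high MMP samples, with 223 and 244 normalized reads in high MMP and 338 and 309 in low MMP samples (log2 difference −0.47, SE 0.11, limma adjusted p 0.472). *Sox5* was at 167 and 125 against 112 and 112. In the KLF family 14 of 17 genes were in the table, 5 higher and 2 lower. *Klf8* was at 111 and 116 against 75.8 and 66.4 (log2 difference 0.67, SE 0.16, limma adjusted p 0.472), and the stress-responsive *Klf6* was at 8407 and 7139.8 against 5180.0 and 6725. *Klf12* was at 24.2 and 32.6 against 16.6 and 15.05, and *Klf5*, a factor of epithelial proliferation, was at 1986 and 2169 against 1968 and 1649. The 4 genes were higher in both high MMP samples. In the LY6 family 9 of 17 genes were in the table, 2 higher and 1 lower. *Plaur*, the urokinase receptor, was at 3760 and 4814 against 3443 and 3674. *Ly6e* was at 514 and 289.5 against 303 and 412, with the same 2 highest libraries as *Ly6a*. Of the 12 protein C genes, 8 were in the table, and *Procr* was the 1 that was higher without overlap, while 2 were lower. *F2rl1*, which encodes the protease-activated receptor PAR2, was at 1410 and 1468 against 1576 and 1899.8, lower in both high MMP samples. The thrombin receptor gene *F2r* was at 2669 and 2671 against 2722 and 3084, also lower in both, and *S1pr1* was at 24.2 and 31.0 against 39.2 and 28.3, which overlapped.

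Of 40 other stem and progenitor genes, 30 were in the table. Of these, 3 were higher and 5 lower in high MMP without overlap (13.5% and 24.5% of all genes), the median log2 difference was −0.09, and none was called by limma. *Notch1*, a receptor of progenitor fate, was at 202 and 305 normalized reads in high MMP and 415 and 374 in low MMP samples (log2 difference −0.66, SE 0.23, limma adjusted p 0.473). *Itgb1*, which encodes the integrin used to enrich mammary stem cells, was at 16105 and 21783 against 17694 and 17101, and *Ctnnb1*, which encodes beta-catenin, was at 15444 and 15860 against 16239 and 16856. *Id4*, a regulator of mammary stem cells, was at 34.1 and 20.1 against 31.4 and 44.3, so the groups overlapped.

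**Figure D5:**
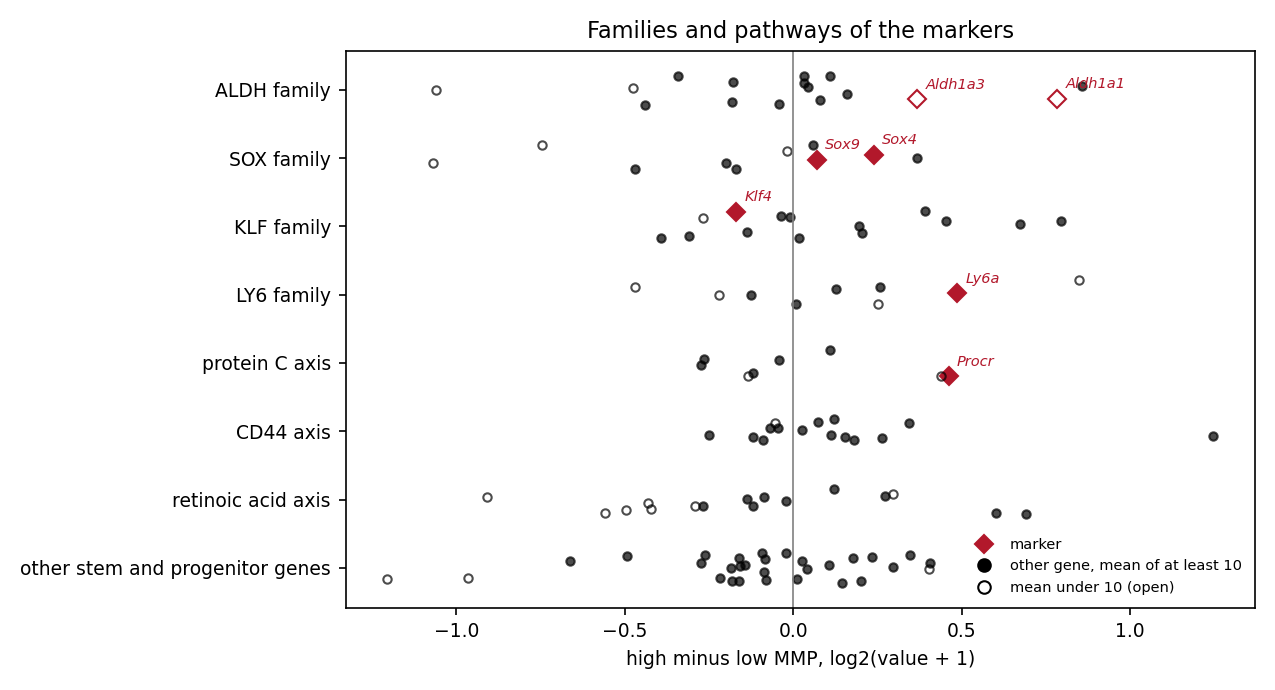
Difference between high and low MMP samples on the log2(value + 1) scale (horizontal axis) for each gene of 8 families and pathways (rows), with markers as red diamonds, other genes with a mean of at least 10 as filled circles and genes with a mean under 10 as open symbols. The differences lay on both sides of 0 in each family, with *Procr* at 0.46 in its row and *Has3* at 1.25 in the CD44 row.

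Cell cycle genes are given beside *Procr* and *Sox4* because most of them, like these markers, had groups that did not overlap. The same held for 37.9% of all genes, in either direction, and most S-phase genes went in the direction opposite to these markers. The cell cycle lists were chosen with earlier results of these data known, so the counts beside the shares of all genes are a description and no test. Of 21 G2/M genes, 18 were higher in high MMP samples without overlap (13.5% of all genes), with a median log2 difference of 0.54, and their summed level was 127434 and 137417 normalized reads against 85061 and 87813. Of 21 S-phase genes, 17 were lower without overlap (24.5% of all genes), with a median of −0.44 and sums of 67034 and 51816 against 78173 and 81023. *Ube2c*, which helps degrade mitotic cyclins, was at 4946 and 4777 against 1879 and 2087, and *Cdc6*, a licensing factor of DNA replication, was at 1171 and 829 against 2507 and 2832. *Nusap1* (2991 and 2912 against 1219.6 and 1319.9) and *Top2a* (37134 and 38824 against 18715 and 20473) were also higher in both high MMP samples, while *Mki67* (11214 and 15182 against 14609 and 13537) overlapped. *Ung* (306 and 167 against 826 and 869), *Mcm6* (7147 and 5086 against 8159 and 8208) and *Mcm5* (6865 and 5085 against 7971 and 7770.0) were lower in both. limma and edgeR called 0 genes of either list, as of all genes. At an unadjusted limma p under 0.05, 14 G2/M genes were higher and 13 S-phase genes lower. Among all 20197 genes, 798 were higher and 1213 lower at that p. DESeq2 called 12 G2/M and 4 S-phase genes, beside 0.954% of the genes it gave an adjusted p. Whether the cell cycle difference had a part in *Procr* or *Sox4* was not tested.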

How the data were processed

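RNA was sequenced from 4 sorted samples, from 200 ng of total RNA with a stranded mRNA kit over 75 cycles. Per the submitters' processing notes, reads were aligned with STAR and counted with HTSeq on mm10 (GRCm38), with versions not given in the sources used here. The deposited signal values were gene counts that the authors scaled to one total per library, and every value was a whole number of reads (tolerance 0.01) times the library's scale. No column lacked a sample. IDs matched GENCODE M21 for 19993 of 20197 genes and 204 did not. Differences were tested on log2(value + 1) with limma 3.58.1 (R 4.3.3) over all genes, and in edgeR 4.0.16 and DESeq2 1.42.0 on the recovered reads, with Benjamini-Hochberg adjustment and a threshold of 0.05. The limma, edgeR and DESeq2 fits were tested on simulated data, where limma over all genes did not reach its threshold. The 10 markers were named first, then, from each list, the 2 genes with the largest difference and the 2 with the highest mean, where the mean reached 10. One gene so named is not reported here. Members and lists were chosen with earlier results of these data known. Alternatives were other pseudocounts, filters, scalings, tools, a replicate block and leaving out each sample.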

Additional observations from a re-analysis of the deposited data

How the results depend on the processing

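Outside of leaving out a sample, all 9 markers kept their direction under 11 to 13 settings each. Leaving out 1 sample turned the direction for 6 of them, with log2 differences from −0.10 to 0.35 for *Cd24a*, −0.45 to 2.02 for *Aldh1a1*, −0.37 to 1.10 for *Aldh1a3*, −0.26 to 0.41 for *Sox9*, −0.28 to 1.26 for *Ly6a* and −0.70 to 0.36 for *Klf4*. *Cd44* (0.02 to 0.09), *Sox4* (0.15 to 0.33) and *Procr* (0.42 to 0.50) kept theirs. The count of markers higher without overlap was 2 in all samples, 3 after median-of-ratios rescaling and 2 after quantile normalization. It was 2 to 6 with 1 sample left out, where fewer samples have to be separated. The share of all genes was 32.0% without high MMP sample 2 and 23.9% without low MMP sample 2. That share was not computed without either of the other samples or after rescaling or quantile normalization. Genes called with limma numbered 0. They were 118 with DESeq2, among them 16 genes of the family and pathway lists, which were 12 G2/M and 4 S-phase genes. The labels do not say whether a number marks one experiment, and same-numbered samples did not deviate together (correlation −0.421 over 12902 genes), so the pairing was not used in the report's values. With the replicate block, limma over all genes called 0, as in simulated data with changed genes, and edgeR called 106, 14 of them in the lists and none a marker. A crossed pairing, chosen after seeing the data, gave 733 genes, 51 list genes and 1 marker (*Procr*) in edgeR. The cause of these differences in count was not tested. With 2 samples per group, the intervals of most markers allow differences of either sign.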

Other observations

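Among 9999 genes with a mean of at least 100 normalized reads, those whose centered log2 values lay nearest to *Ly6a* over the 4 samples were *Klf10*, *Slfn2* and *Hs3st1*. *Klf10*, a TGF-beta-inducible KLF factor, was at 2194 and 909.6 normalized reads in the high MMP samples and 690 and 1540.4 in the low MMP samples, a root mean square difference from *Ly6a* of 0.11. *Slfn2* was at 252 and 103 against 93.3 and 168 (0.13), and *Hs3st1* was at 204 and 66.1 against 71.5 and 163 (0.20). The 3 genes were highest in high MMP sample 1 and low MMP sample 2, as *Ly6a* was.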
